A study of Homo sapiens with 6 samples.

Results

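Circular RNAs whose host genes encode chromatin modifiers and nucleosome remodellers were followed after long cadmium exposure of BEAS-2B, a human bronchial epithelial line that was immortalised in culture. Members were chosen by the symbol of their single host gene. It had to start with KDM, KMT2, SMARC, CHD, ARID, HDAC, SETD, BRD, NSD, BAZ, KAT, PHF or INO80 and go on with a digit or letter, or be ASH1L, CREBBP, EP300, EP400 or NCOR1, and SMARCA5 was left out. The rule found 288 circRNAs of 72 host genes, out of 9857 circRNAs in all, of which 9543 from 3742 genes have a single host. It uses names and no measured value. By its prefix it also takes in 9 circRNAs of 3 katanin genes (KATNA1, KATNAL1 and KATNAL2), which encode microtubule-severing enzymes and not chromatin proteins, so that 279 circRNAs of 69 genes remain without them. INO80 itself, the ATPase of its remodelling complex, ends after the prefix and falls outside the rule with its 6 circRNAs.

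Cells in cadmium were kept at 2.0 µM for 20 weeks (T-BEAS-2B, 3 libraries), and control cells at 0.0 µM over the same time (C-BEAS-2B, 3 libraries). Ribosomal RNA was removed, RNase R was used to degrade linear RNA, and the libraries keep the strand. Whether libraries of a group stem from separate cultures is not labelled, so each p-value measures only their spread, which may be technical. Each group is 1 line grown in 1 condition.

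A circRNA forms when the spliceosome joins a downstream exon's end back to an upstream exon's start, and reads across this back-splice junction count it. Chromatin regulators are often encoded by genes with many exons, and one gene can give several circles from different exon pairs. Their proteins fall into writers that add methyl or acetyl groups to histones, erasers that remove them, readers that bind the marked tails, and remodellers that move nucleosomes with the energy of ATP. Cadmium is a carcinogenic metal of tobacco smoke and industry that reaches the bronchial epithelium by inhalation. A change in a circRNA is not a change in the protein of its host gene, which was not measured here.

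Junctions of some circles named below are shown first, 5′ to 3′, as the last 20 bases of the circle's final exon in lower case followed by the first 20 bases of its first exon in capitals. They were read from GENCODE 29 transcripts on GRCh38, and all those shown lie in coding sequence. PHF20 hsa_circ_0060143 and SETD3 hsa_circ_0000567, also named below, are not shown and do not lie whole in coding sequence.
ASH1L hsa_circ_0003247 (chr1:155438327-155459898, minus strand, exons 4 to 5): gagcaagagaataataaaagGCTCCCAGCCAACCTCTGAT
ASH1L hsa_circ_0000137 (chr1:155438327-155439068, minus strand, exon 5): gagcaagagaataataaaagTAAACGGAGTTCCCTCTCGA
HDAC8 hsa_circ_0091065 (chrX:72462004-72464731, minus strand, exons 8 to 9): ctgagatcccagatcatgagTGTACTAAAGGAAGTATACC
KDM3B hsa_circ_0074119 (chr5:138398178-138400012, plus strand, exons 10 to 11): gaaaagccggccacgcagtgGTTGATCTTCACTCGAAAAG
KDM3B hsa_circ_0074102 (chr5:138372674-138375206, plus strand, exons 2 to 3): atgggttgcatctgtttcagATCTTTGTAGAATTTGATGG
SMARCC1 hsa_circ_0001294 (chr3:47670658-47676782, minus strand, exons 17 to 19): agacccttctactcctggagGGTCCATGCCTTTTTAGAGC
CREBBP hsa_circ_0007637 (chr16:3850297-3851009, minus strand, exon 2): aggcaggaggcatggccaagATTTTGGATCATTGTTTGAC
BAZ1B hsa_circ_0004670 (chr7:73459536-73470483, minus strand, exons 8 to 13): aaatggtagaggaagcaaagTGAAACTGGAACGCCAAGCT
PHF20 hsa_circ_0005163 (chr20:35842573-35847434, plus strand, exons 3 to 4): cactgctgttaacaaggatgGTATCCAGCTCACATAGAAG
The ASH1L pair shows how circles of one gene differ. Both end at exon 5 and share the bases left of the junction, and only the acceptor exon to its right sets them apart.

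Libraries held 133185, 135686 and 160248 junction reads with cadmium and 225769, 137919 and 165352 in controls. A member had 6 reads per library in the median, and circRNAs in general had 7, so single members were counted with low precision. Members took 2.55%, 2.53% and 2.43% of junction reads with cadmium and 2.59%, 2.64% and 2.53% in controls. The mean was 2.50% ± 0.0611 with cadmium and 2.58% ± 0.0538 in controls (SD over 3 libraries), and the groups overlapped (two-sided exact permutation p = 0.2). Of the 288 members, 256, 251 and 259 were detected with cadmium and 279, 264 and 267 in controls, and the groups did not overlap (exact permutation p = 0.1, the smallest that 3 libraries against 3 allow). Scaled to the depth of the smallest library, the expected numbers were 256, 251 and 258 with cadmium and 275, 264 and 266 in controls (exact permutation p = 0.1). The smallest listed count above 0 was 2, while this scaling counts a single read as detected. It therefore cannot fully remove the effect of depth. Of the members, 88.7% ± 1.40 were detected with cadmium and 93.8% ± 2.76 in controls, and of all other circRNAs, 88.8% ± 0.910 with cadmium and 93.1% ± 2.48 in controls (SD of 3 libraries). Junction reads give amounts relative to all circRNAs of a library, so fewer cells with a circle and fewer circles per cell cannot be told apart.

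Control replicates 1 and 3 stood apart from the other 4 libraries in the balance of junction and non-junction reads. For the 176 members with both kinds of read in every library, the doubled junction reads made up 38.4%, 36.6% and 33.5% of doubled junction plus non-junction reads with cadmium, and 53.9%, 34.0% and 57.5% in controls. Other circRNAs showed the same pattern, at 29.8%, 31.6% and 30.3% with cadmium and 45.9%, 29.1% and 48.7% in controls. The part of this difference in the results was not tested, and fits with control replicate 2 as the only control assume that it varies like the cadmium libraries. Among markers of the labelled cell type, 0 of 9 epithelial genes, 3 of 8 mesenchymal genes (ZEB1, ZEB2 and BNC2), 0 of 3 leukocyte genes and 0 of 2 endothelial genes host a circRNA in the table. A gene without a circRNA is not shown to be silent, so the cell type could not be checked in this way.

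Reads were spread unevenly over the hosts. The 10 hosts with most reads held 52.5% of the 24391 member reads, and the 10 circRNAs with most reads held 30.7%. Levels per host are CPM, junction counts summed over the circRNAs of a gene and scaled by the TMM size of the library. The host with the most reads was SETD3, with a single circle of exons 2 to 6 (hsa_circ_0000567), at 2625, 2231 and 1989 CPM with cadmium and 2550, 2388 and 2596 CPM in controls. SETD3 bears the SET domain of histone methyltransferases but is known as the enzyme that methylates a histidine of actin. Below it came KDM1A, ASH1L, SETD2, NSD2, CHD6, SMARCC1, CHD2, CREBBP and PHF20. KDM1A, the flavin-dependent demethylase of histone H3, averaged 1636 ± 117 CPM with cadmium and 1883 ± 184 CPM in controls (SD over 3 libraries), and most of its reads, 66.5% ± 1.90 with cadmium and 65.4% ± 8.08 in controls, lay in the circle of exons 2 to 3 (hsa_circ_0009061). SETD2, which writes the trimethyl mark of transcribed gene bodies, averaged 1779 ± 63.9 CPM with cadmium and 1566 ± 180 CPM in controls. NSD2, a dimethyltransferase of the same histone tail, averaged 1577 ± 238 CPM with cadmium and 1442 ± 250 CPM in controls. The groups overlapped for SETD3, SETD2 and NSD2, while the 3 cadmium libraries lay below the 3 controls for KDM1A. At the other end, 10 hosts did not pass the filter on low counts, and the highest of them averaged 32.8 CPM.

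No member host passed an adjusted p of 0.05. Of 3008 host genes tested with edgeR's quasi-likelihood test, 7 were called (0.233%), and of the 62 members among them 0 were called, with a smallest adjusted p of 0.204. Under an unadjusted p of 0.05, 2 hosts of the rule were higher with cadmium, HDAC8 and KDM3B, beside 5.88% of all tested hosts, and 4 were lower, ASH1L, CHD7, ARID4B and PHF20, beside 6.58%. The groups did not overlap for 4 higher and 6 lower members, together 16.1% of the 62, beside 9.28% higher and 10% lower of all tested hosts. These shares are near or below the background. The median log2 fold change, cadmium over control, was -0.03 over the 62 members, 31 above 0 and 31 below, and 0.00 over all tested hosts, and 44 of the 62 lay within 0.5 of 0. The numbers at an unadjusted p under 0.05 moved with single libraries. They were 4 higher without cadmium replicate 1, 1 lower without control replicate 1, and 6 higher and 0 lower with control replicate 2 as the only control, while DESeq2 gave 2 higher and 1 lower. With libraries left out, the log2 fold change turned or moved by over 1.5 times for 27 of 33 named hosts, and stayed within that for ASH1L, HDAC8, KDM3B, PHF20, ARID4B and KMT2C. This limit is relative, so estimates near 0 exceed it easily. The hosts that stayed were all among those with the smallest p on their side, so their staying is no separate support.

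**Figure D1:**
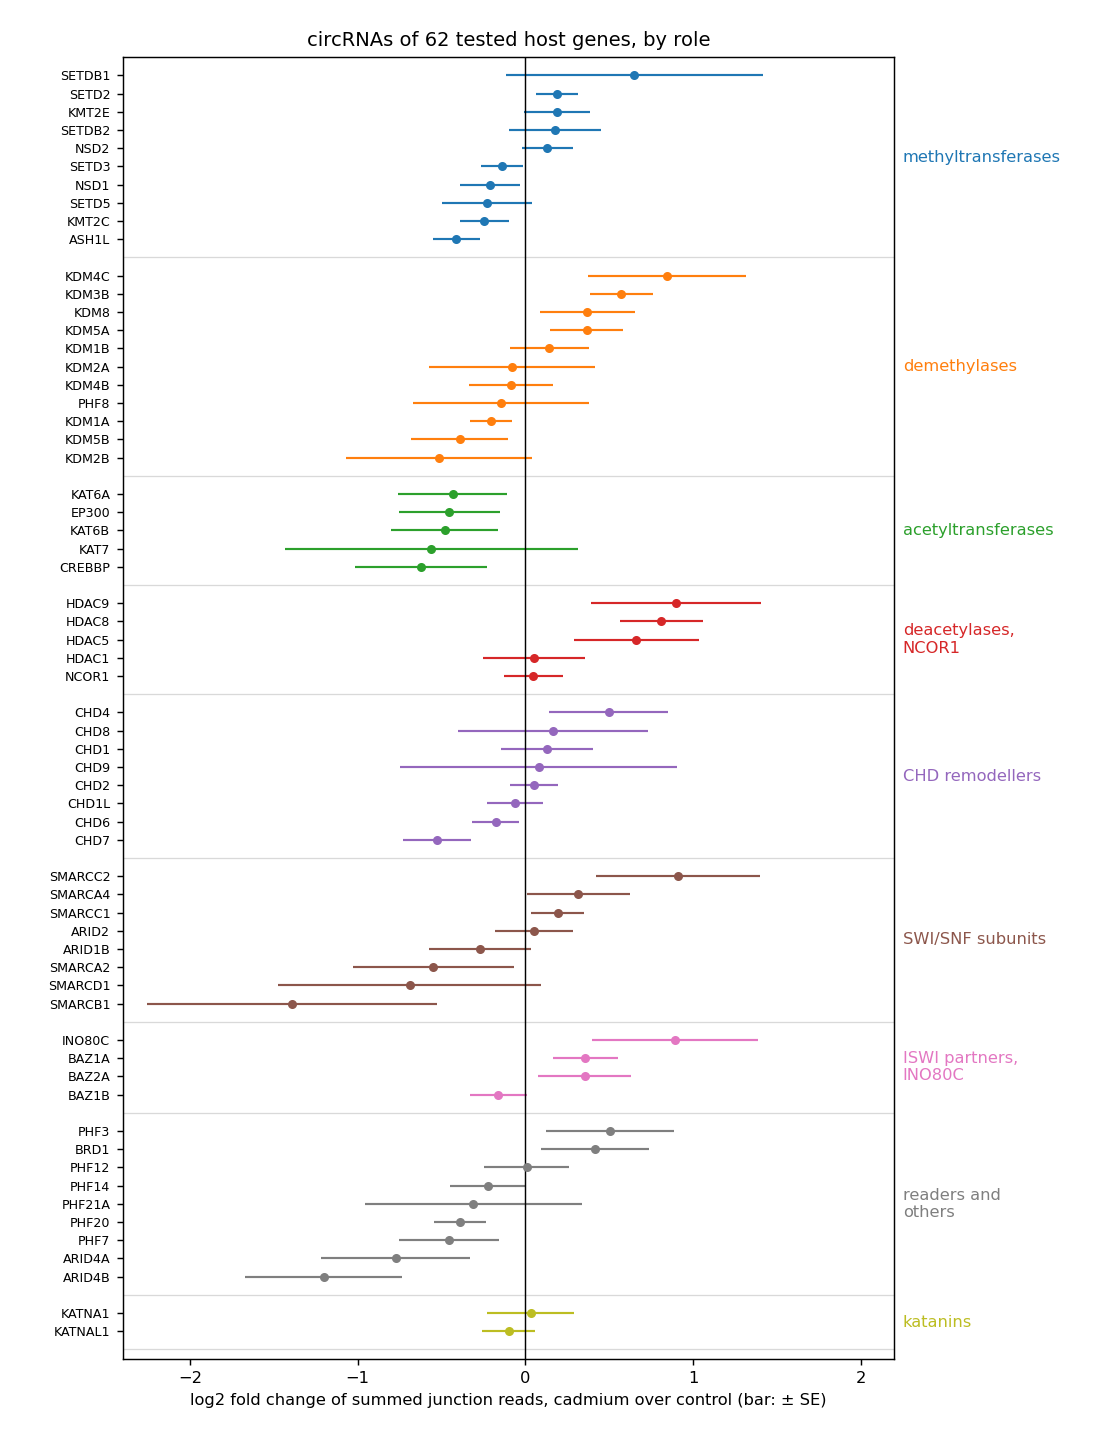
Log2 fold change of the summed junction reads of each tested host gene, cadmium over control, with its standard error as a bar, in groups by role. Points lie on both sides of 0 in most groups, while the 5 acetyltransferases lie left of 0 and the 5 tested deacetylases and corepressor right of it, and none passed the adjusted threshold.

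Hosts of the ASH1L, KMT2, NSD and SETD families, grouped by name as methyltransferases, form the largest group, with 72 circRNAs of 11 hosts. The group includes SETD3 and KMT2E, whose known roles are not the methylation of histones. Of its 10 tested hosts, 5 had a log2 fold change above 0 and 5 below, with a median of -0.0047, beside 0.00 for all tested hosts. The group took 0.983%, 0.943% and 0.814% of junction reads with cadmium and 0.943%, 1.03% and 0.881% in controls, and the groups overlapped (exact permutation p = 0.6).

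ASH1L, a Trithorax-group methyltransferase that acts on histone H3, had the lowest fold change of these hosts. Its 14 circRNAs summed to 1567, 1666 and 1193 CPM with cadmium and 2080, 2022 and 1774 CPM in controls. The cadmium libraries lay below the controls, with a log2 fold change of -0.41 (SE 0.14), not past the threshold (edgeR adjusted p = 0.245). Most reads came from 3 circles. The circle of exons 4 to 5 (hsa_circ_0003247, 844 bases), whose junction is shown above, had 78, 76 and 77 reads with cadmium and 176, 100 and 116 in controls, a log2 fold change of -0.46 (adjusted p = 0.456 in edgeR), with groups that did not overlap in CPM. The circle of exon 5 alone (hsa_circ_0000137, 742 bases) uses the same end, and had 62, 64 and 62 reads with cadmium and 125, 67 and 65 in controls, a log2 fold change of -0.13 (adjusted p = 0.892 in edgeR). The estimates of this pair differ in size, and a test for unequal change of the circRNAs within ASH1L did not pass (diffSpliceDGE of edgeR, adjusted p = 0.898).

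The third ASH1L circle, of exon 2 (hsa_circ_0014592), had 23, 37 and 0 reads with cadmium and 57, 43 and 50 in controls. The listed 0 stands where the other cadmium libraries imply 35.7 reads. Without such circles, ASH1L summed to 1392, 1387 and 1193 CPM with cadmium and 1817, 1707 and 1461 CPM in controls, again with groups apart, and a log2 fold change of -0.33 (SE 0.13, edgeR adjusted p = 0.274). Other tested ASH1L circles had few reads and pointed both ways. That of exons 4 to 7 (hsa_circ_0014584) had a log2 fold change of -1.50, that of exons 7 to 12 (hsa_circ_0014577) one of -1.13 and that of exons 11 to 12 (hsa_circ_0007608) one of -0.32. Those of exons 4 to 6 (hsa_circ_0014586) and 7 to 10 (novel_circ_0016475) had 0.78 and 0.65, and the smallest adjusted p of these 5 circles was 0.643 in edgeR's test.

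KMT2C, a catalytic subunit of an enhancer methyltransferase complex, also had cadmium libraries below controls, at 639, 686 and 584 CPM with cadmium and 752, 762 and 746 CPM in controls, a log2 fold change of -0.25 (SE 0.15, edgeR adjusted p = 0.527). One of its 8 circles, hsa_circ_0002810, is listed at 0 in cadmium replicate 2 where 19.0 reads are implied, and without it the log2 fold change was -0.19. The KMT2C groups then overlapped, at 494, 686 and 443 CPM with cadmium and 595, 623 and 621 CPM in controls. KMT2E, a relative of the Trithorax enzymes known as a reader without methyltransferase activity, gave the largest positive fold change among tested member circles of this group. Its circle of exons 14 to 15 (hsa_circ_0081822) had 8, 13 and 11 reads with cadmium and 10, 4 and 0 in controls, groups that were apart in CPM. Its log2 fold change was 1.49 (SE 0.65, edgeR adjusted p = 0.557), and it ran from 0.93 to 2.40 with libraries left out.

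The erasers of histone methylation had 48 circRNAs of 13 hosts, and 5 of 11 tested hosts had a fold change above 0, with a median log2 fold change of -0.08. They took 0.386%, 0.425% and 0.435% of junction reads with cadmium and 0.408%, 0.385% and 0.417% in controls. The groups overlapped (exact permutation p = 0.5).

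KDM3B, a Jumonji-type demethylase of histone H3, had the smallest p of this group. Its 9 circRNAs summed to 563, 769 and 802 CPM with cadmium and 438, 418 and 583 CPM in controls. The lowest cadmium library lay below the highest control, and the log2 fold change was 0.57 (SE 0.19, edgeR adjusted p = 0.231). Its circle of exons 10 to 11 (hsa_circ_0074119, 368 bases) had 15, 15 and 32 reads with cadmium and 10, 7 and 14 in controls. In CPM its groups were apart, at 111, 109 and 204 with cadmium and 45.0, 50.8 and 84.2 in controls, a log2 fold change of 1.25 (SE 0.40, edgeR adjusted p = 0.436). The groups were just apart in CPM for the circle of exons 2 to 3 (hsa_circ_0074102), which had 8, 10 and 19 reads with cadmium and 10, 8 and 4 in controls, with a log2 fold change of 1.01 (adjusted p = 0.602 in edgeR). The most abundant KDM3B circle, of exons 16 to 17 (hsa_circ_0004763), had 22, 42 and 34 reads with cadmium and 34, 25 and 35 in controls, and overlapped. KDM5A, a demethylase of promoter marks, had 373, 497 and 609 CPM with cadmium and 314, 454 and 401 CPM in controls, which overlapped, a log2 fold change of 0.36 (SE 0.22), or 0.10 with control replicate 2 as the only control. KDM4C, which removes methyl groups from repressive marks, had 53.3, 67.8 and 109 CPM with cadmium and 41.5, 36.6 and 50.2 CPM in controls, groups that did not overlap, with a log2 fold change of 0.85 (SE 0.47, edgeR adjusted p = 0.494), or 0.49 without cadmium replicate 3.

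**Figure D2:**
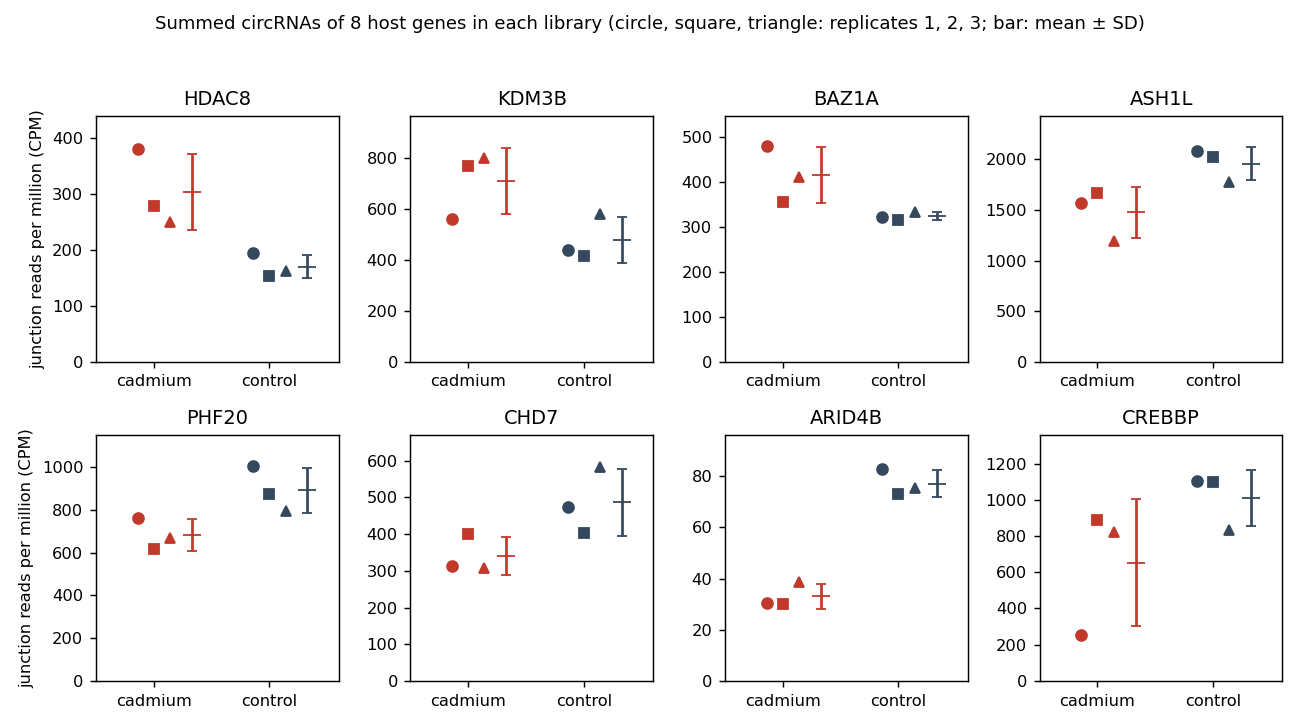
Summed circRNA level of 8 host genes in each library, in CPM from 0, with replicates 1 to 3 as circle, square and triangle and the mean ± SD beside them, cadmium left and control right. HDAC8 and BAZ1A lie higher with cadmium and ASH1L, PHF20, CHD7 and ARID4B lower without overlap, while KDM3B and CREBBP overlap and 1 cadmium library of CREBBP stands far below the rest.

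The writers of acetylation, 18 circRNAs of 5 hosts, all had a fold change below 0, with a median log2 fold change of -0.48 and a range of -0.62 to -0.43. None passed the adjusted threshold, none had an unadjusted p under 0.05, and none had groups apart. The group took 0.0713%, 0.153% and 0.125% of junction reads with cadmium and 0.175%, 0.199% and 0.138% in controls, and the groups overlapped (exact permutation p = 0.2, 0.45 after Benjamini-Hochberg adjustment over 9 role groups).

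CREBBP and EP300 are paralogous acetyltransferases and coactivators of many transcription factors. CREBBP summed to 251, 889 and 821 CPM with cadmium and 1102, 1099 and 834 CPM in controls, a log2 fold change of -0.62 (SE 0.39, edgeR adjusted p = 0.579). Without cadmium replicate 1 it was -0.26. The circle of exon 2 (hsa_circ_0007637, 713 bases) makes up most of the gene's reads, with 0, 93 and 108 reads with cadmium and 200, 114 and 114 in controls, and the 0 in cadmium replicate 1 stands where 90.5 reads are implied. Without that circle CREBBP had 251, 188 and 128 CPM with cadmium and 180, 264 and 119 CPM in controls, with a log2 fold change of 0.01 (adjusted p = 0.987 in edgeR), which leaves 4 of the 5 acetyltransferase hosts below 0.

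The other 3 tested CREBBP circles had low counts and fold changes below 0. A circle of exons 4 to 5 (novel_circ_0010374) had a log2 fold change of -0.13, the intronic one (hsa_circ_0003077) -0.79 and that of exons 22 to 28 (novel_circ_0010366) -0.56, each with overlapping groups. A further CREBBP circle, of exons 17 to 21 (hsa_circ_0006714), had 3, 2 and 3 reads with cadmium and was listed at 0 in all 3 controls. EP300 had 152, 407 and 231 CPM with cadmium and 410, 403 and 263 CPM in controls, a log2 fold change of -0.45 (SE 0.30, edgeR adjusted p = 0.570). It was -0.20 without cadmium replicate 1 and -0.90 without cadmium replicate 2. KAT6B and KAT6A, catalytic subunits of MYST-type complexes, had log2 fold changes of -0.48 (SE 0.32) and -0.43 (SE 0.33), and KAT7 one of -0.56 (SE 0.88). That of KAT6B was -0.25 without control replicate 2 and -0.92 with it as the only control.

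The deacetylases and their corepressor NCOR1, 21 circRNAs of 7 hosts, lay on the other side, with all 5 tested hosts above 0 and a median log2 fold change of 0.66. They took 0.135%, 0.122% and 0.122% of junction reads with cadmium and 0.0957%, 0.101% and 0.119% in controls. The cadmium libraries lay above the controls (exact permutation p = 0.1, the smallest the design allows, and 0.45 adjusted over the 9 role groups). The 2 hosts that did not pass the filter were HDAC3, with 30.4, 37.7 and 32.1 CPM with cadmium and 18.4, 22.0 and 31.3 CPM in controls, and HDAC4, with 0, 0 and 19.2 CPM with cadmium and 27.7, 36.6 and 43.9 CPM in controls.

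HDAC8, an X-linked class I deacetylase that acts on the cohesin subunit SMC3, had the smallest p of all tested member hosts. Its 4 circRNAs summed to 380, 279 and 250 CPM with cadmium and 194, 154 and 163 CPM in controls. The groups were apart, at 303 ± 68.4 CPM with cadmium and 170 ± 20.9 CPM in controls (SD, n = 3 each), with a log2 fold change of 0.81 (SE 0.25, edgeR adjusted p = 0.204). Both tested circles pointed the same way. Exons 8 to 9 form the first (hsa_circ_0091065, 268 bases), which had 26, 14 and 21 reads with cadmium and 19, 9 and 10 in controls, a log2 fold change of 0.99 (SE 0.36, edgeR adjusted p = 0.458). That of exons 5 to 7 (hsa_circ_0008930, 300 bases) had 21, 14 and 10 reads with cadmium and 12, 9 and 11 in controls, a log2 fold change of 0.78 (SE 0.41, edgeR adjusted p = 0.655), and its groups overlapped in CPM. Without cadmium replicate 1 the log2 fold change of this second circle was 0.38. The circles share no exon, and their junction reads are separate because their junctions differ.

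HDAC5 and HDAC9, class IIa deacetylases, had log2 fold changes of 0.66 (SE 0.38) and 0.90 (SE 0.51), at low levels of 76.1, 113 and 128 CPM with cadmium and 55.3, 73.3 and 75.2 CPM in controls for HDAC5. HDAC1, a catalytic subunit of several corepressor complexes, had 107, 128 and 141 CPM with cadmium and 115, 125 and 125 CPM in controls, a log2 fold change of 0.05. NCOR1, the scaffold that binds and activates HDAC3, had 730, 610 and 597 CPM with cadmium and 540, 579 and 759 CPM in controls, a log2 fold change of 0.05, and its main circle is exon 18 alone (hsa_circ_0042174). The signs of HDAC1 and NCOR1 turned when single libraries were left out.

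The CHD remodellers, 29 circRNAs of 8 hosts, had a median log2 fold change of 0.06, with 5 above 0 and 3 below. CHD7, a remodeller mutated in CHARGE syndrome, summed to 312, 399 and 308 CPM with cadmium and 475, 403 and 583 CPM in controls. The groups were just apart, with a log2 fold change of -0.53 (SE 0.20, edgeR adjusted p = 0.311), and it was -0.27 with control replicate 2 as the only control. The circle of exons 4 to 6 (novel_circ_0037389) carried 83.8% ± 4.05 of the gene's reads with cadmium and 81.4% ± 6.35 in controls (SD of 3 libraries). It had 35, 46 and 38 reads with cadmium and 85, 41 and 81 in controls, and its groups overlapped in CPM. CHD6, CHD2 and CHD1L, placed here by their symbols and the most abundant of the group, had log2 fold changes of -0.18 (SE 0.14), 0.05 (SE 0.14) and -0.06 (SE 0.17). One CHD6 circle, hsa_circ_0060423, is listed at 0 in cadmium replicate 3 where 14.3 reads are implied. Without it the log2 fold change of CHD6 was -0.16.

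The SWI/SNF group, 39 circRNAs of 9 hosts, had 4 of 8 tested hosts above 0 and a median log2 fold change of -0.11, and in none were the groups apart. SMARCC1, a scaffold subunit of the BAF complex, gave the most circles of any member, 19. They summed to 997, 927 and 1212 CPM with cadmium and 881, 784 and 1085 CPM in controls, a log2 fold change of 0.19 (SE 0.16, edgeR adjusted p = 0.656). One of them, hsa_circ_0008639, is listed at 0 in control replicate 1 where 19.8 reads are implied, and without it the log2 fold change was 0.13. The SMARCC1 circle of exons 17 to 19 (hsa_circ_0001294, 328 bases) had 21, 19 and 32 reads with cadmium and 17, 9 and 16 in controls. In CPM this was 155, 138 and 204 with cadmium and 76.4, 65.3 and 96.3 in controls, groups that were apart, with a log2 fold change of 1.06 (SE 0.32, edgeR adjusted p = 0.423). The most abundant SMARCC1 circle, of exons 14 to 16 (hsa_circ_0001296), had 10, 19 and 39 reads with cadmium and 29, 20 and 25 in controls, which overlapped. SMARCC2, the paralogous scaffold, had 129, 90.4 and 160 CPM with cadmium and 64.6, 14.7 and 119 CPM in controls, a log2 fold change of 0.91 (SE 0.49). Control replicate 2 holds 2 of its reads, and the value was 0.51 without that library and 3.03 with it as the only control. SMARCA4, the ATPase, had 137, 249 and 385 CPM with cadmium and 203, 220 and 207 CPM in controls, a log2 fold change of 0.31 (SE 0.31) that turned to -0.11 without cadmium replicate 3, and ARID2, a subunit of the PBAF form, one of 0.05 (SE 0.23).

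ARID1B, a DNA-binding subunit of the BAF complex, had the only unadjusted p under 0.05 among members in the test for unequal change of a host's circRNAs. Of 1347 hosts with at least 2 tested circRNAs, 0 were called by diffSpliceDGE of edgeR (0%), and 74 had an unadjusted p under 0.05 (5.49%). Of 37 members among them, 0 were called and ARID1B alone was under 0.05 unadjusted (edgeR adjusted p = 0.772). That test sets its 2 tested circles against each other. The circle of exons 6 to 7 (hsa_circ_0006305) had 5, 6 and 6 reads with cadmium and 10, 3 and 0 in controls, a log2 fold change of 0.72 (SE 0.86, edgeR adjusted p = 0.861). An intronic circle at chr6:156829227-156835950 (novel_circ_0033152) had 0, 0 and 7 reads with cadmium and 17, 9 and 12 in controls, a log2 fold change of -2.11 (SE 0.79, edgeR adjusted p = 0.475). All its cadmium reads lie in replicate 3, without which that group is at 0 and the fitted value was -6.54, which depends on the prior count and is no bound. A further intronic circle starts at the same base, at chr6:156829227-156834824 (novel_circ_0033151), and had 5, 4 and 2 reads with cadmium and was listed at 0 in the 3 controls. It did not pass the filter and was not tested.

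The ISWI partners, INO80C and EP400 had 18 circRNAs of 5 hosts, and 3 of 4 tested hosts were above 0, with a median log2 fold change of 0.35. BAZ1A, the ACF subunit that partners the ISWI ATPase, had 479, 354 and 411 CPM with cadmium and 323, 315 and 332 CPM in controls. The cadmium libraries lay above the controls, with a log2 fold change of 0.36 (SE 0.19, edgeR adjusted p = 0.483). Without cadmium replicate 1 it was 0.23. The main BAZ1A circle is exon 3 alone (hsa_circ_0006137), with 34, 27 and 39 reads with cadmium and 31, 26 and 23 in controls. The log2 fold change of this circle was 0.59 (SE 0.26, edgeR adjusted p = 0.560), or 0.29 with control replicate 2 as the only control. BAZ1B, the Williams syndrome transcription factor, had 685, 550 and 507 CPM with cadmium and 706, 681 and 552 CPM in controls, a log2 fold change of -0.16 (SE 0.17).

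Of the 10 BAZ1B circles, 5 start at exon 8. The one of exons 8 to 13 (hsa_circ_0004670) had 13, 22 and 16 reads with cadmium and 46, 26 and 40 in controls, or 96.1, 159 and 102 CPM with cadmium and 207, 189 and 241 CPM in controls. Its groups were apart, with a log2 fold change of -0.83 (SE 0.29, edgeR adjusted p = 0.436). The one of exons 8 to 9 (hsa_circ_0003866) had 38, 28 and 26 reads with cadmium and 60, 34 and 20 in controls, and overlapped. The test for unequal change within BAZ1B did not pass (diffSpliceDGE of edgeR, adjusted p = 0.947). BAZ2A, the large subunit of the nucleolar remodelling complex, and INO80C, a subunit of the INO80 complex, had log2 fold changes of 0.35 (SE 0.28) and 0.89 (SE 0.49). With control replicate 2 left out they were 0.10 for BAZ2A and 0.51 for INO80C, and with it as the only control 1.17 for BAZ2A and 2.85 for INO80C. INO80 itself, outside the rule, had 388, 467 and 423 CPM with cadmium and 364, 381 and 408 CPM in controls, groups that overlapped, with a log2 fold change of 0.15 (SE 0.18).

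Readers and other ARID, BRD and PHF genes had 34 circRNAs of 11 hosts, and 3 of 9 tested hosts were above 0, with a median log2 fold change of -0.31. PHF20, a methyl-lysine reader of the NSL acetyltransferase complex, summed over 14 circles to 761, 618 and 667 CPM with cadmium and 1005, 872 and 796 CPM in controls. The groups were apart, with a log2 fold change of -0.39 (SE 0.15, edgeR adjusted p = 0.316). One PHF20 circle, hsa_circ_0060158, is listed at 0 in control replicate 3 where 10.5 reads are implied. Without it the log2 fold change of PHF20 was -0.43. The circle of exons 2 to 5 (hsa_circ_0060143, 452 bases) had the smallest p of all tested member circRNAs. It had 4, 2 and 3 reads with cadmium and 23, 9 and 11 in controls, or 29.6, 14.5 and 19.1 CPM with cadmium and 103, 65.3 and 66.2 CPM in controls, a log2 fold change of -1.89 (SE 0.51, edgeR adjusted p = 0.378).

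PHF20 exons 3 to 4, inside that span, form another circle (hsa_circ_0005163), which had 3, 10 and 5 reads with cadmium and 25, 10 and 12 in controls, a log2 fold change of -1.04 (SE 0.48, edgeR adjusted p = 0.595). The most abundant one, of exons 3 to 5 (hsa_circ_0007130), had 19, 15 and 30 reads with cadmium and 49, 19 and 29 in controls, and overlapped. ARID4B and ARID4A are subunits of the SIN3 deacetylase complex. ARID4B had 30.4, 30.1 and 38.5 CPM with cadmium and 83.0, 73.3 and 75.2 CPM in controls, groups well apart at a low level, with a log2 fold change of -1.20 (SE 0.47, edgeR adjusted p = 0.311). ARID4A had 30.4, 106 and 51.3 CPM with cadmium and 120, 125 and 75.2 CPM in controls, which overlapped, a log2 fold change of -0.77 (SE 0.44), or -1.35 without cadmium replicate 2 and -0.48 without cadmium replicate 1. PHF12, a SIN3-associated protein, and PHF14 had log2 fold changes of 0.01 (SE 0.25) and -0.23 (SE 0.22). The katanin hosts, which are not chromatin genes, had -0.10 (SE 0.16) for KATNAL1 and 0.03 (SE 0.26) for KATNA1.

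**Figure D3:**
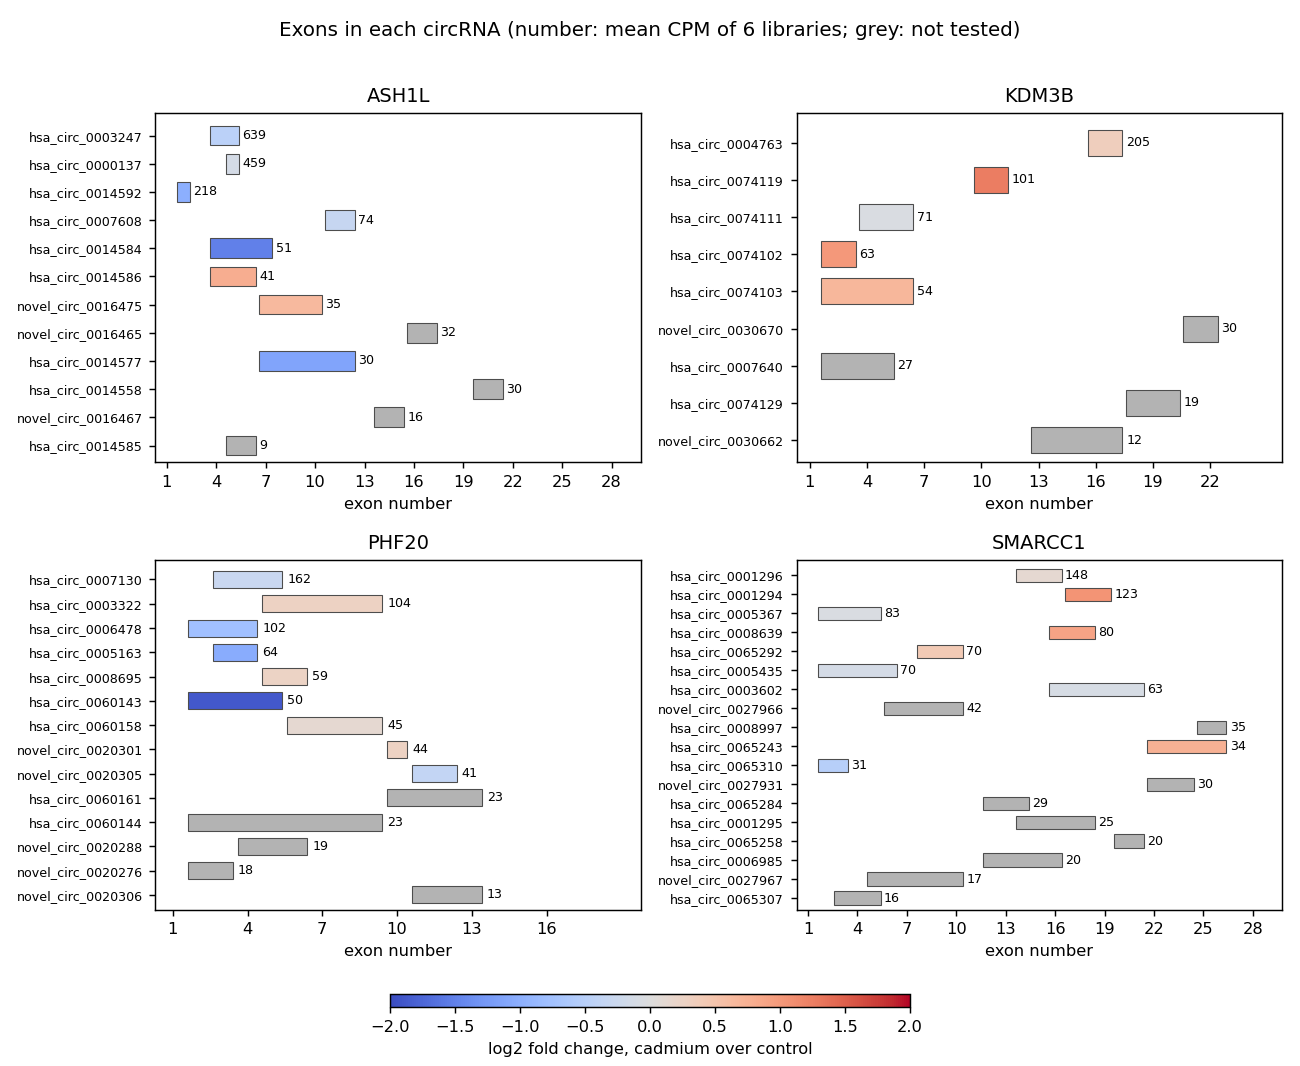
Exons held by each exonic circRNA of ASH1L, KDM3B, PHF20 and SMARCC1, numbered along the transcript and ordered from high to low mean CPM, which stands beside each bar. Colour gives the log2 fold change, cadmium over control (blue lower, red higher, grey not tested), and circles that share an end exon can differ in sign of the estimate.

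As single circRNAs, 174 of the 288 members passed the filter on low counts. Of 6182 circRNAs tested with edgeR, 5 were called (0.0809%) and 0 of the members. Under an unadjusted p of 0.05, 6 circles of the rule were higher with cadmium, beside 4.32% of all tested circRNAs, and 5 were lower, beside 3.88%. The 6 were circles of SMARCC1, KDM3B (2), HDAC8, KMT2E and BAZ1A, and the 5 were circles of PHF20 (2), BAZ1B, ASH1L and ARID1B. The groups did not overlap for 14 higher and 9 lower members, beside 7.52% and 7.78% of all tested circRNAs. The median log2 fold change was 0.01 over members and 0.01 over all tested. The numbers at an unadjusted p under 0.05 moved with the libraries and the filter. They were 3 higher and 8 lower without cadmium replicate 3, 10 higher without control replicate 2, 3 higher without control replicate 3, 11 higher and 12 lower with no filter, 2 lower with a stricter filter, and 2 higher and 2 lower in DESeq2. With control replicate 2 as the only control they were 10 higher and 4 lower.

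The authors' deposited table of their own comparison gives 7 members with a positive and 7 with a negative fold change below their p of 0.05, beside 2.39% and 2.75% of the 9853 circRNAs with a p there. In the authors' deposited table, 0 members had an adjusted p under 0.05, and 112 of the 288 had an adjusted p at all. The PHF20 circle of exons 2 to 5 had a log2 fold change of -1.10 (p = 0.0130) in the authors' deposited table, and the SMARCC1 circle of exons 17 to 19 had 0.82 (p = 0.0290) in the authors' deposited table. Another SMARCC1 circle (hsa_circ_0065307) went the other way, with -1.11 and the smallest p of a member in the authors' deposited table (p = 0.00817). How the authors' fold changes were scaled is not stated in the sources used here, so their sizes cannot be set against the edgeR values above.

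Listed at 0 in all 3 libraries of 1 group and above 0 in all 3 of the other were 8 members. At 0 with cadmium were 4 members, beside 2.15% of the 9857 circRNAs, and at 0 in controls were 4, beside 0.943%. Listed at 0 with cadmium were circles of ASH1L (hsa_circ_0014585, with 5, 2 and 3 reads in controls), SMARCC1 (hsa_circ_0065307, with 10, 3 and 5), PHF7 (novel_circ_0028188, with 2, 3 and 6) and NSD1 (novel_circ_0031343, with 6, 2 and 5). Listed at 0 in controls were the CREBBP and ARID1B circles above, NCOR1 novel_circ_0011223 with 2 reads in each cadmium library, and KDM1B novel_circ_0033403 with 2, 5 and 3. No value of 1 stands in the table, and these counts are too low to show absence. A floor of 3 counts in a library allows for counting error alone, behind a true 0. It does not cover a single read that may be listed as 0. Nor does it cover zeros such as that of CREBBP hsa_circ_0007637, where 90.5 reads are implied.

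**Figure D4:**
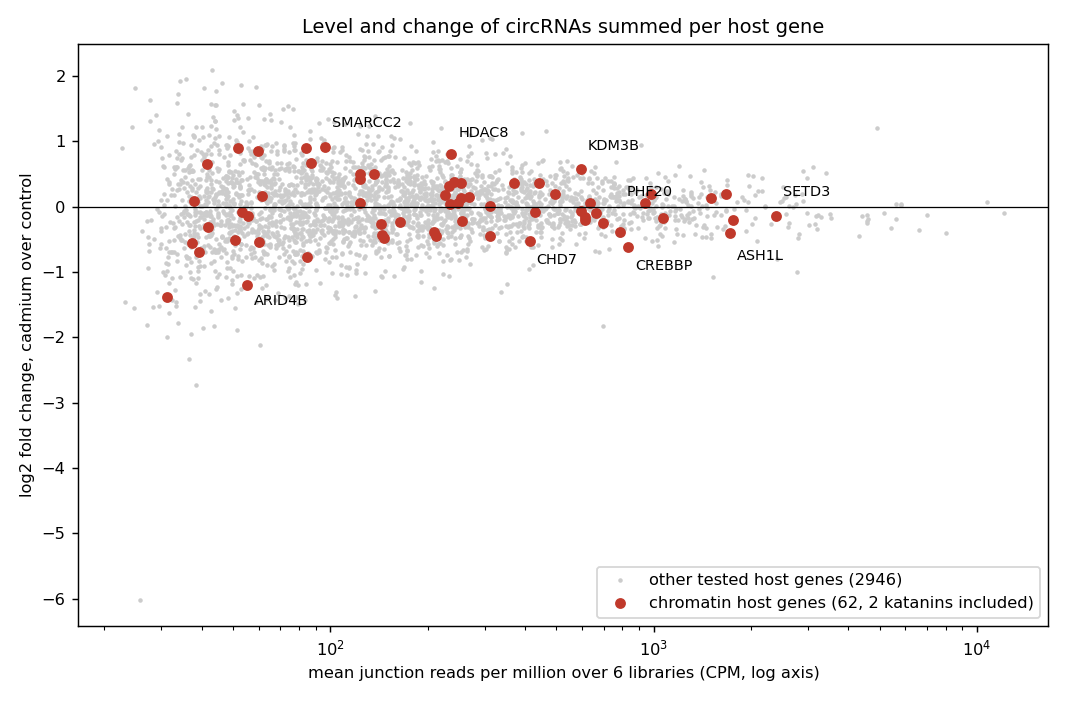
Mean level over 6 libraries (CPM, log axis) against log2 fold change, cadmium over control, for the 62 tested hosts of the rule (red) among all 3008 tested host genes (grey). The red points spread around 0 within the grey cloud, and low hosts scatter more than high ones.

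In structure, members resembled the other circRNAs with a single host in most measures, given here as a description. Of the 288 members, 276 are exonic and 12 intronic, and for 271 a GENCODE 29 transcript has both ends on its exon bounds. Their median spliced length was 450 bases, against 413 for other circRNAs, with 3 exons in the median for both, and 86.3% lay whole in coding sequence, against 83.3%. Circles that start at exon 2 made up 17.0% of members and 29.1% of the others. Lengths that are a multiple of 3 made up 41.3% of members and 37.1% of others. Single-exon circles made up 4.43% and 3.30%.

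Member hosts gave more circles each, 4 on average against 2.52 for other hosts, with a median of 2 for both, and 27.8% of member hosts gave 5 or more against 13.2%. Of member circles in hosts with more than 1, 45.7% share their acceptor with another circle, against 47.3% of the others, and 44.9% share their donor, against 41.6%. The most shared ends were the acceptor of exon 8 of BAZ1B and that of exon 4 of NSD2, each with 5 circles. The donor of exon 10 of KDM5A and the acceptor of exon 2 of PHF20 each served 4 circles.

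Other genes of the same machinery were read from lists outside the rule. Of 34 Polycomb genes, which keep developmental genes silent, 12 host circRNAs and 11 were tested, with 0 called and a single host on each side under an unadjusted p of 0.05, beside 5.88% higher and 6.58% lower of all tested hosts, and a median log2 fold change of 0.11. SFMBT1 had 829, 806 and 712 CPM with cadmium and 484, 718 and 602 CPM in controls, a log2 fold change of 0.39 (SE 0.17), and EZH1, a catalytic subunit, had 167, 121 and 96.2 CPM with cadmium and 203, 198 and 194 CPM in controls, a log2 fold change of -0.64 (SE 0.29). SUZ12, a core Polycomb subunit, and ASXL2 had 0.42 (SE 0.36) and -1.06 (SE 0.52). ASXL2 had 236, 203 and 25.7 CPM with cadmium and 360, 227 and 345 CPM in controls, with cadmium replicate 3 far below the rest. Of 136 further chromatin genes, 82 host circRNAs and 71 were tested, with 0 called. Under an unadjusted p of 0.05, 3 were higher and 2 lower, beside the same shares of all tested hosts, and 33 of the 71 lay above 0, with a median of -0.03. ACTR8, an actin-related subunit of INO80, had 243, 256 and 302 CPM with cadmium and 175, 139 and 132 CPM in controls, a log2 fold change of 0.83 (SE 0.25, edgeR adjusted p = 0.204). SIN3A, a corepressor scaffold, had 0.85 (SE 0.28), SMYD3 -0.54 (SE 0.15) and CDYL -0.33 (SE 0.13), none past the threshold.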

How the data were processed

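Members, the marker hosts ASH1L, CHD7, HDAC8 and CREBBP, and the gene lists were chosen with earlier results of these data known. Per the file headers, the deposited counts give junction reads of each circRNA in each library, as whole numbers. The deposited TPM values equal each count's share of its library and were used in 1 alternative. The authors' deposited comparison gives log2 fold changes and p-values, read only where named as theirs. The annotation gives positions, host genes and non-junction reads. The submitters' processing notes name hg19, DESeq 1.10.1, Bowtie and Bowtie2 2.2.8 without their roles, and no source used here names the circRNA caller. Positions follow GRCh38 exon bounds and are counted from 1.

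Counts were summed per host gene, leaving out circRNAs with more than 1 host or none, and tested in R 4.3.3 with edgeR 4.0.16, quasi-likelihood (TMM, robust, filterByExpr with minimum count 5 and total 15), Benjamini-Hochberg adjusted over all hosts or circRNAs, threshold 0.05. CPM use TMM library sizes. The SE of a log2 fold change is its size over the square root of F. Unequal change within a host was tested with diffSpliceDGE of edgeR on circRNAs that passed the filter. Exact permutation tests, two-sided, compared shares and detection. The fits were tested on simulated data. Named were ASH1L, CHD7, HDAC8 and CREBBP with their tested circRNAs, the 6 higher and 6 lower hosts and circRNAs of smallest p, up to 3 most abundant hosts per role, and 2 genes on each side of each further list. ASH1L, CHD7, HDAC8 and CREBBP were chosen with earlier results known, and others were named after their values were seen. Alternatives were RLE size factors, library totals, other filters, DESeq2 1.42.0, limma 3.58.1 on log2(TPM + 1), a replicate block, each library left out, and control replicates 1 and 3 left out. Added after seeing the data were the rule with INO80 and the removal of circRNAs with a listed 0 where the group's other libraries imply 10 or more reads.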

Additional observations from a re-analysis of the deposited data

How the results depend on the processing

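No member host, member circRNA or member host with unequal change was called under any alternative run. Of 33 named hosts and 24 named circRNAs, none passed the adjusted threshold in 493 and 345 alternative fits, with smallest adjusted p-values of 0.154 and 0.0564. The direction turned in 24 and 4 of these fits, and leaving out libraries turned the log2 fold change or moved it by over 1.5 times for 27 of the hosts and 17 of the circRNAs. Without circRNAs with an implied 0 (172 in the table, 8 of them members), the log2 fold change of CREBBP was 0.012. The log2 fold change of PHF12 was -0.0315 in limma and -0.00195 with the replicate block. With libraries left out, 1 at a time or both control replicates 1 and 3, log2 fold changes ran from -0.040 to 0.18 for ARID2, -0.18 to 0.11 for CHD1L, -0.029 to 0.22 for CHD2, -0.045 to 0.14 for HDAC1, -0.41 to 0.26 for KATNA1, -0.19 to 0.11 for KATNAL1, -0.070 to 0.20 for NCOR1, -0.37 to 0.18 for PHF12, -0.018 to 0.29 for SETD2 and -0.11 to 0.59 for SMARCA4. They ran from -0.28 to 0.00014 for hsa_circ_0000137, -0.18 to 1.44 for hsa_circ_0014586, -1.30 to 0.039 for novel_circ_0010366 and -1.01 to 0.44 for novel_circ_0010374.

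The median log2 fold change of member host genes was -0.076 with no filter, 0.035 with the stricter filter and between -0.082 and -0.024 with libraries left out. The median log2 fold change of member circRNAs ran from -0.053 to 0.029 with libraries left out. The cause was not tested. All host genes called numbered 7, against 4 in limma and 3 to 13 with libraries left out, and all circRNAs called 5, against 0 to 13. The difference in member share of junction reads stayed between -0.109 and -0.046 percentage points and that in members detected between -17.7 and -10.2 with 1 library left out. Deviations of same-numbered libraries from their group means had correlations over hosts of 0.0090, 0.0039 and 0.084. Those of differently numbered libraries ran from -0.050 to 0.040. Deviations within a group of 3 sum to 0 and hold counting error, so these values cannot decide whether the numbers pair libraries. With the replicate block, 0 member hosts and 0 member circRNAs were called, as without it, and 6 hosts of all tested.

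Precision limits these results. The median SE of a log2 fold change was 0.28 for member hosts and 0.48 for member circRNAs, which holds counting error and spread between libraries together, and HDAC8 at 0.81 was not called. Without molecular identifiers, reads cannot be taken as separate molecules. Of 1728 member values, 152 are listed at 0.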
